A study of Mus musculus with 10 samples.

Results

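Fc receptors let phagocytes bind the constant region of antibodies, and 6 genes of this system were followed in mouse microglia, the resident macrophages of the brain. They were chosen by name from the 37447 genes of the expression table: Fcgr1, Fcgr3 and Fcgr4 (activating IgG receptors), Fcgr2b (the inhibitory IgG receptor), Fcer1g (the common gamma chain, the signalling adaptor of the activating receptors) and Fcrls (an Fc receptor-like scavenger receptor). All 6 were found under these symbols. RNA came from brainstem microglia of mice aged 6 weeks, in 10 libraries and 3 groups. LCM_GFP (n = 4, 3 labelled female and 1 male) holds GFP expressing microglia cut by laser from frozen sections of tissue that had first been fixed for a short time in paraformaldehyde, with RNA released by proteinase K and acid phenol. FACS_GFP (n = 3, 2 female and 1 male) holds GFP expressing microglia that were freed from the tissue, passed over Percoll and flow sorted, with RNA taken up in TRIzol. FACS_WT (n = 3, all male) holds wild-type C57BL/6 microglia sorted in that same way. The labels name neither the promoter or allele behind the GFP nor the strain of the GFP mice. Complementary DNA was made with the Ovation RNA-Seq method throughout. Isolation method, fixation and RNA extraction changed together, so their effects cannot be told apart.

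An activating Fc receptor has little signalling ability of its own. It sits in the membrane beside a dimer of the gamma chain, whose ITAM (a tyrosine motif phosphorylated by Src family kinases) recruits the kinase Syk and starts phagocytosis and cytokine release. Fcgr2b instead carries an ITIM in its own tail, which recruits the lipid phosphatase SHIP-1 and dampens the same signal. In the brain these receptors are found mainly on microglia and other macrophages, while Fcrls is known as a gene of resident microglia.

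Promoter sequence is shown first, since these are genes of macrophages and PU.1, the transcription factor that directs macrophage and microglial identity, binds purine-rich sites. The 150 bases before each annotated start are given 5′ to 3′ on the gene's own strand, from RefSeq (GRCm38.p6, a later build than the mm9 of the expression files), with matches to GAGGAA (a PU.1 core, on either strand) or to a composite site of Ets and IRF factors (GGAA, any 2 bases, then GAAA, on either strand) in capitals. The 2 motifs were searched separately and their matches did not overlap in these windows.
Fcgr1, chr3:96293970-96294119, minus strand: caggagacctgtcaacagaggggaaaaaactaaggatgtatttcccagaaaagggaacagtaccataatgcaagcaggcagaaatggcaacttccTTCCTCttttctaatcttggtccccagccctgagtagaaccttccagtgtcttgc
Fcgr3, chr1:171059395-171059544, minus strand: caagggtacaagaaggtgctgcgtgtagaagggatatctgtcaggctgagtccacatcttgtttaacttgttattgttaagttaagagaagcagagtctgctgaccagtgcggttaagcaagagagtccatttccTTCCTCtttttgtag
Fcgr4, chr1:171018776-171018925, plus strand: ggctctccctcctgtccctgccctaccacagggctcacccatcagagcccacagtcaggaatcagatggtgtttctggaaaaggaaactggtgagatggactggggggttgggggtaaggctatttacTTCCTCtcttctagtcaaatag
Fcgr2b, chr1:170976072-170976221, minus strand: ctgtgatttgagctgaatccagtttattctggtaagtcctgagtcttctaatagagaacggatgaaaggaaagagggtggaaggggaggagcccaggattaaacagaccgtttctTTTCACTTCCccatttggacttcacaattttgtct
Fcer1g, chr1:171234350-171234499, minus strand: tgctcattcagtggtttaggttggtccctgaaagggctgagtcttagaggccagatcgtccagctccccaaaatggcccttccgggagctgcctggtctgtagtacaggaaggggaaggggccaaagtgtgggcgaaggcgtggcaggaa
Fcrls, chr3:87263525-87263674, minus strand: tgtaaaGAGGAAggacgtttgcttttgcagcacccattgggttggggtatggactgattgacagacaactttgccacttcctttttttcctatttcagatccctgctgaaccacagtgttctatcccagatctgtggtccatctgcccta

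GAGGAA was present before the start of 4 of the 6 genes. Its first base lay at −55 in Fcgr1, −15 in Fcgr3 (counted from the second of 2 annotated starts, −6 from the other), −22 in Fcgr4 and −144 in Fcrls, and it was on the opposite strand in the first 3. Over the 300 bases around the start, 31.3% of 27025 annotated genes held this motif, and 25.9% held it in the 250 bases before the start, so its presence is common. Fcgr1 and Fcgr3 shared a run of 14 bases around it, ttccttcctctttt. The composite site was present in Fcgr2b alone among the 6, at −35 on the opposite strand, against 3.16% of all genes over the 300 bases. Fcer1g held neither set of letters. These are letter matches in a window and carry no measurement of binding.

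The coding sequence of Fcgr2b and Fcgr3 bears on how well reads can be assigned to each of them. Their longest identical coding stretch runs for 129 bases, from coding base 278 to 406 of Fcgr2b and from 263 to 391 of Fcgr3 (GENCODE M21, longest coding transcript), and is shown because a short read from it fits both genes.
Shared by Fcgr2b and Fcgr3: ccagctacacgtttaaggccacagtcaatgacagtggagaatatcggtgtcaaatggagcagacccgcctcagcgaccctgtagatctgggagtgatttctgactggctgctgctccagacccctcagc
Of the 50-base stretches of each gene's transcript, 166 were common to both, which is 12.8% of those of Fcgr3 and 4.75% of those of Fcgr2b. A further 270 stretches of Fcgr2b occurred in 144 other genes, so that 12.5% of its stretches were not its own. The share found in any other gene was 0% for Fcgr1, Fcgr4, Fcer1g and Fcrls. How the authors treated reads with more than 1 place in the genome is not given in the sources used here, so the values of Fcgr2b and Fcgr3 are uncertain to that extent.

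The labels could be checked in part. Microglia markers were high in every library, with a summed level over 24 genes of 2878 to 7034 FPKM (fragments per kilobase of transcript, scaled to the mapped fragments of the library) in the laser-captured libraries and of 11236 to 16361 FPKM in the sorted ones. Neuron markers summed to 871 to 2191 FPKM in the laser-captured and 2.83 to 13.7 FPKM in the sorted libraries (10 genes), and oligodendrocyte markers to 2924 to 7888 and 21.6 to 32.8 FPKM (10 genes). Astrocyte markers summed to 442 to 853 FPKM against 21.6 to 33.1 FPKM (8 genes), and endothelial markers to 79.5 to 207 FPKM against 13.8 to 23.9 FPKM (7 genes). Every laser-captured library thus held more RNA of the 4 other brain cell types than any sorted one, and the part of this in the results was not tested. The Y-linked gene Uty read 15.6 FPKM in laser-captured library 1 and the Y-linked Kdm5d read 5.96 FPKM in library 3, although both carry a female label. Xist read 3.91 FPKM in sorted GFP library 2, which carries a male label beside clear Y-linked transcripts. Results without these libraries are given below. The files hold no counts, so depth is unknown, and between 11075 and 12500 genes reached 1 FPKM in a library.

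In FPKM as deposited, all 6 genes were lower in every laser-captured library than in any sorted one. Such a gap was common: 31.2% of all genes tested showed it against the sorted GFP libraries and 29.6% against the sorted wild-type ones. Fcgr1, the high-affinity IgG receptor (chromosome 3, 96086831 to 96098179, mm9), read 32.2, 85.8, 42.2 and 25.5 FPKM in laser-captured libraries 1 to 4. It read 165, 149 and 200 FPKM in the sorted GFP libraries and 171, 146 and 198 FPKM in the sorted wild-type libraries. The highest laser-captured library stayed below the lowest sorted one, and both sorted groups had nearly the same mean, 171 ± 25.9 (SD, n = 3) and 172 ± 26.1 FPKM (n = 3), against 46.4 ± 27.1 FPKM (n = 4).

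Fcgr3, the low-affinity activating receptor (chromosome 1, 172981299 to 172995066), was the most abundant of the 4 IgG receptors in 9 of the 10 libraries. It read 56.9, 112, 38.6 and 66.3 FPKM after laser capture, 310, 232 and 343 FPKM in sorted GFP cells and 274, 334 and 427 FPKM in sorted wild-type cells. The groups did not overlap, and the sorted means of 295 ± 57.0 and 345 ± 76.9 FPKM (n = 3 each) were 4.31-fold and 5.03-fold the laser-captured mean of 68.5 ± 31.4 FPKM (n = 4).

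Fcgr4, the activating receptor for a subset of IgG classes (chromosome 1, 172949050 to 172959892), was the weakest of the 6 in every library. It was listed at 0 in laser-captured libraries 1 and 3 and read 1.17 and 1.90 FPKM in libraries 2 and 4. Sorted GFP cells had 4.42, 3.87 and 3.99 FPKM, and sorted wild-type cells 5.92, 6.36 and 8.89 FPKM. This is the one gene of the 6 for which the 2 sorted groups did not overlap either. Since only 2 laser-captured libraries reached 1 FPKM, Fcgr4 entered the tests against laser capture only through the sorted libraries, where it was high. Such admission favours a lower value after laser capture.

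Fcgr2b, the inhibitory receptor (chromosome 1, 172890688 to 172906678), varied most among the laser-captured libraries of those above 0 in every library. Its values there were 29.3, 72.8, 10.1 and 4.07 FPKM, a 17.9-fold range, compared with 143, 114 and 141 FPKM in sorted GFP cells and 137, 130 and 183 FPKM in sorted wild-type cells. The sorted ranges were 1.26-fold and 1.40-fold.

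Fcer1g, the gamma chain (chromosome 1, 173159702 to 173164496), was the most abundant member in all 10 libraries. It read 198, 263, 304 and 114 FPKM after laser capture, 490, 400 and 495 FPKM in sorted GFP cells and 400, 444 and 558 FPKM in sorted wild-type cells. Its laser-captured mean of 220 ± 82.7 FPKM (n = 4) was the closest of the 6 to the sorted level, which was 462 ± 53.4 FPKM (n = 3) in GFP and 468 ± 81.6 FPKM (n = 3) in wild-type cells.

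Fcrls, the microglial Fc receptor-like gene (chromosome 3, 87054679 to 87067660), read 11.98, 108, 64.8 and 34.4 FPKM after laser capture. Sorted GFP cells had 240, 197 and 243 FPKM and sorted wild-type cells 241, 233 and 313 FPKM. Laser-captured library 1 held only 5.29% of the sorted GFP mean, while library 2 held 47.5%. In library 1 Fcrls ranked behind Fcgr1 and Fcgr2b, which it exceeded in each sorted library.

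**Figure D1:**
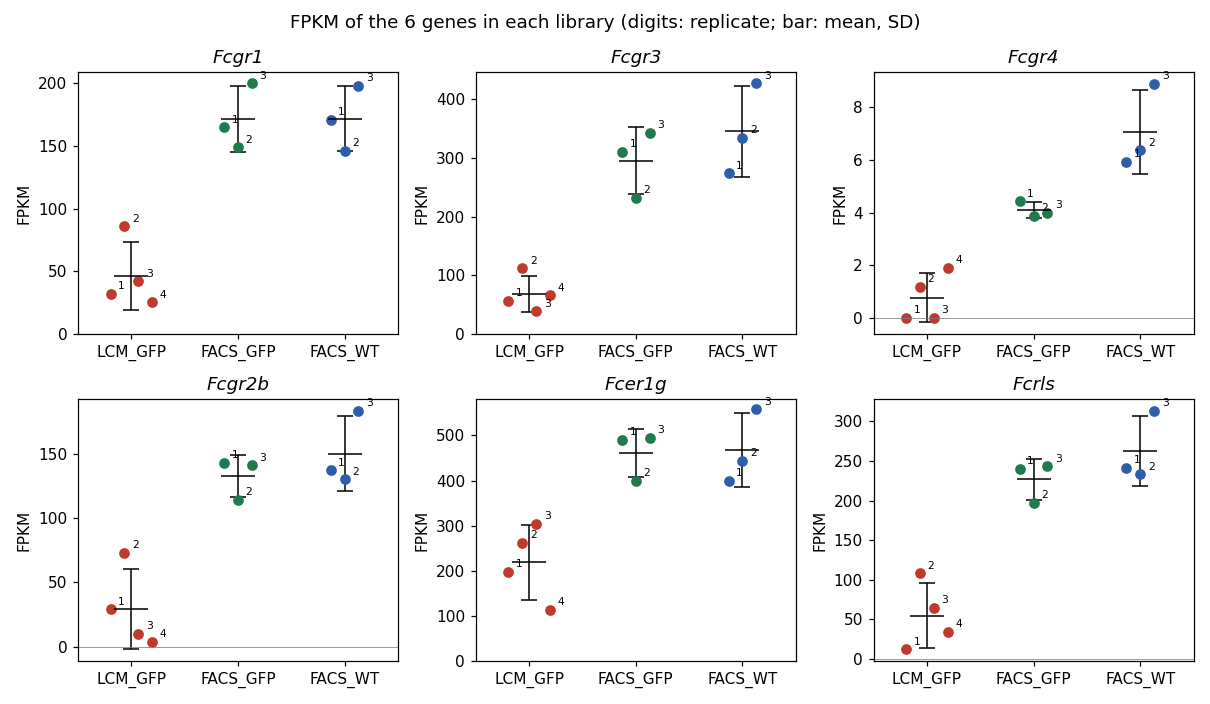
FPKM of each gene (vertical axis, scaled separately for each panel) in the 3 groups (horizontal axis), 1 point per library with its replicate number, and the group mean with its SD as a black bar. Every laser-captured point lies below every sorted point in all 6 panels, and library 2 is the highest laser-captured library for Fcgr1, Fcgr2b, Fcgr3 and Fcrls.

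The order of levels was the same in all 6 sorted libraries: Fcer1g, Fcgr3, Fcrls, Fcgr1, Fcgr2b and Fcgr4. FPKM corrects for transcript length, and levels were compared between genes on this scale. The uncertainty from reads of Fcgr2b and Fcgr3 that fit other genes applies to this order and to the shares and ratios below. Within a group, the ranges of Fcgr3 and Fcrls overlapped in both sorted groups, as did those of Fcrls and Fcgr1 in sorted GFP cells, and those of Fcer1g and Fcgr3 and of Fcgr1 and Fcgr2b in sorted wild-type cells. Although these ranges overlap, the order within each of the 3 libraries of a group was the same. Among the laser-captured libraries, Fcer1g stood first and Fcgr4 last in 4 of 4. The neighbours between them overlapped in range there, and Fcgr3 exceeded Fcrls, and Fcrls exceeded Fcgr1, in 3 of 4.

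The comparison of LCM_GFP with FACS_GFP addresses how the isolation method changes the microglial transcriptome in GFP mice. On the log2(FPKM + 1) scale, Fcgr1, Fcgr2b, Fcgr3, Fcer1g and Fcrls fell (limma, adjusted over all genes tested), with Fcer1g turning to 0.46 when each library was centred on its microglia markers. Fcgr4 was also under the threshold, but it had been admitted to the test by the sorted libraries, so its call carries no weight. Of all 13403 genes tested, 19.6% were called lower and 32.1% in either direction, so a fall was common. Of these 2624 lower calls, 1282 were of genes that, like Fcgr4, fewer than 3 laser-captured libraries held at 1 FPKM. The median change was −2.09 over the 6 genes, −2.18 without Fcgr4 and −0.60 over all genes tested. For 31.2% of all genes every laser-captured library lay below every sorted GFP library, as it did for these 6.

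Fcgr2b had the lowest change, −2.82 ± 0.84 (SE, limma adjusted p = 0.0363), followed by Fcrls at −2.41 ± 0.67 (limma adjusted p = 0.0285). Fcgr3 changed by −2.18 ± 0.40 (limma adjusted p = 0.00542) and Fcgr1 by −2.00 ± 0.44 (limma adjusted p = 0.0119). These log2 changes are about as large as that of Ctss, the lysosomal protease cathepsin S and a microglia marker, at −2.42. The fitted change of Fcgr4 was −1.68 ± 0.46 (limma adjusted p = 0.0273, with the limit just given), on a scale where the added 1 understates changes of low genes. Fcer1g changed by −1.15 ± 0.37 (limma adjusted p = 0.0457). Of all genes tested, 4.28% had a change at least as low as that of Fcgr2b and 33.4% one at least as low as that of Fcer1g, so the gamma chain lies well inside the bulk of genes. In bulk samples, fewer cells of a type and less RNA of a gene per cell cannot be told apart.

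With any 1 of the 3 sorted GFP libraries left out, Fcgr3 alone passed (limma adjusted p = 0.0447, 0.0299 and 0.0474 without library 1, 2 and 3), and the share of all genes called ranged from 8.21% to 8.57%. With only laser-captured libraries 2 and 4, which had no mark against their labelled sex, 43.2% of all genes were called; Fcgr1, Fcgr3, Fcer1g and Fcrls fell, Fcgr2b did not pass, and Fcgr4 stood at −1.02.

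Against sorted wild-type cells, which share the same 4 laser-captured libraries and so give no independent test, the same 5 genes fell by limma, with Fcer1g again turning, to 0.53, under centring on microglia markers, and Fcgr4 was under the threshold with the limit given above. Of 13415 genes tested, 19.1% were called lower and 31.4% in either direction. In 29.6% of genes the laser-captured libraries all lay below the sorted wild-type ones. Fcgr2b changed by −2.99 ± 0.84 (limma adjusted p = 0.0292), Fcrls by −2.62 ± 0.67 (limma adjusted p = 0.0207) and Fcgr3 by −2.40 ± 0.41 (limma adjusted p = 0.00358). The fitted change of Fcgr4 was −2.33 ± 0.51 (limma adjusted p = 0.0110). Fcgr1 changed by −2.01 ± 0.45 (limma adjusted p = 0.0121) and Fcer1g by −1.16 ± 0.38 (limma adjusted p = 0.0483). Without any 1 sorted wild-type library Fcgr3 alone passed again, and 8.58% to 9.14% of all genes were called. With labelled sex as a covariate none of the 6 passed, and 13.1% of all genes were called. The sorted wild-type libraries are all male and only 1 laser-captured library is.

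In the authors' deposited table of group comparisons, none of the 6 genes passed their test in any of the 3 comparisons. For sorted GFP against laser capture, the lowest q-value in the authors' deposited table was that of Fcgr3, 0.194, with a log2 ratio of −2.46, laser capture over sorted. For Fcgr2b the authors' deposited table gives −2.59 with a q-value of 1.00. The directions in the authors' deposited table are the same as those given here for all 6 genes against laser capture, and 760 of its 21907 genes passed in the first of these comparisons.

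Each library was then set against its own microglia, by subtracting the median log2(FPKM + 1) of the 24 microglia markers. The median itself was 6.07, 7.51, 7.68 and 6.72 in laser-captured libraries 1 to 4 and between 8.44 and 8.92 in the sorted ones. On this scale none of the 6 genes was called in LCM_GFP against FACS_GFP, where their limma adjusted p ranged from 0.268 to 0.941 and 26.2% of all genes were called, nor in LCM_GFP against FACS_WT. At an unadjusted p under 0.05 the count was also 0 in both. The intervals are wide: Fcgr2b changed by −1.21 (95% interval −3.12 to 0.70), Fcrls by −0.81 (−1.90 to 0.29), Fcgr3 by −0.57 (−1.81 to 0.67) and Fcgr1 by −0.40 (−1.49 to 0.70). Fcgr4 stood at −0.08 (−1.48 to 1.32) and Fcer1g at 0.46 (−0.53 to 1.44). Fcgr4 was listed at 0 in laser-captured libraries 1 and 3, so its centred values there, −6.07 and −7.68, are the marker median with its sign turned. Its centred change therefore does not show an equal level of Fcgr4 relative to the microglia markers.

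The laser-captured libraries differed among themselves on this scale. Relative to the marker median, Fcgr2b stood at −1.14 and −1.30 in libraries 1 and 2, just above the sorted range of −1.60 to −1.39, but at −4.20 and −4.38 in libraries 3 and 4. Fcgr3 stood at −0.21, −0.68 and −0.65 in libraries 1, 2 and 4, near the sorted range of −0.58 to −0.18, and at −2.37 in library 3. Fcrls was below its sorted range of −0.82 to −0.62 in libraries 1, 3 and 4, at −2.37, −1.64 and −1.58, and inside it in library 2, at −0.74. Fcer1g was above its sorted range of 0.07 to 0.30 in library 1, at 1.57, and in libraries 2 and 3, at 0.54 and 0.57. No laser-captured library was therefore low or high for every gene.

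**Figure D2:**
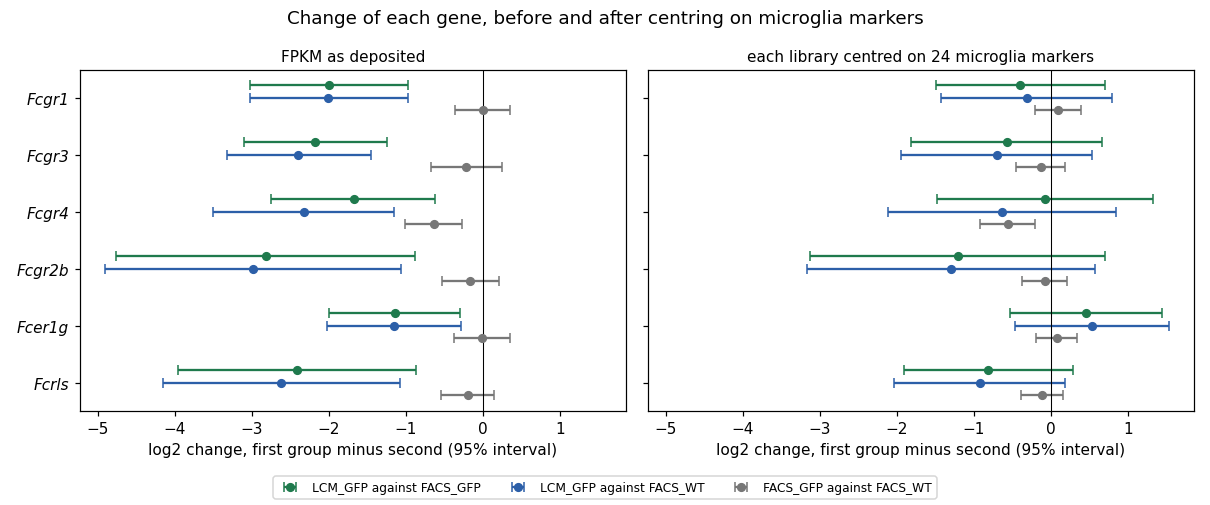
Log2 change of each gene with its 95% interval (horizontal axis) in the 3 comparisons, from FPKM as deposited (left) and after centring each library on 24 microglia markers (right). On the left all intervals of both comparisons with laser capture lie below 0; on the right all of them include 0, and Fcer1g lies on the positive side.

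The balance between activating and inhibitory receptors was steady in sorted cells. The sum of Fcgr1, Fcgr3 and Fcgr4 was 3.35, 3.38 and 3.88 times Fcgr2b in the sorted GFP libraries and 3.30, 3.73 and 3.46 times in the sorted wild-type libraries. In laser-captured libraries 1 to 4 it was 3.04, 2.74, 7.98 and 23.0 times. Libraries 1 and 2 thus lie just under the sorted range, and libraries 3 and 4 well above it.

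Among the FPKM of the 4 IgG receptor genes, Fcgr3 took 46.5% to 54.2% in sorted libraries, Fcgr1 23.6% to 29.9%, Fcgr2b 20.5% to 23.3% and Fcgr4 0.580% to 1.09%. Sorted GFP cells gave Fcgr4 a share of at most 0.775% and sorted wild-type cells one of at least 1.01%. The share of Fcgr2b was 24.8%, 26.8%, 11.1% and 4.16% in laser-captured libraries 1 to 4. The share of Fcgr1 was raised to 46.4% in library 3, and that of Fcgr3 to 67.8% in library 4.

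Relative to the activating receptor sum, the gamma chain was higher after laser capture than in sorted cells. Fcer1g was 2.23, 1.32, 3.76 and 1.22 times the activating receptor sum in laser-captured libraries 1 to 4, compared with 0.905 to 1.04 times in sorted GFP and 0.881 to 0.914 times in sorted wild-type libraries. All 4 laser-captured values exceed all 6 sorted values. How many of all genes would do so over this sum was not counted. Against sorted GFP cells, 12.9% and 10.3% of all genes tested fell at least as far as Fcgr1 and Fcgr3, and 33.4% as far as Fcer1g. The main receptors of the sum thus fell further than most genes, so a rise over it is not particular to Fcer1g. Tyrobp (DAP12), another ITAM adaptor, was 4.23, 3.14, 4.18 and 1.43 times the same sum in laser-captured libraries 1 to 4 and 2.04 to 2.17 times in sorted GFP libraries, with 2.14 times as the lowest value in sorted wild-type libraries. It was above all 6 sorted values in libraries 1 to 3 and below all 6 in library 4. These ratios are given as descriptions, with no test.

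**Figure D3:**
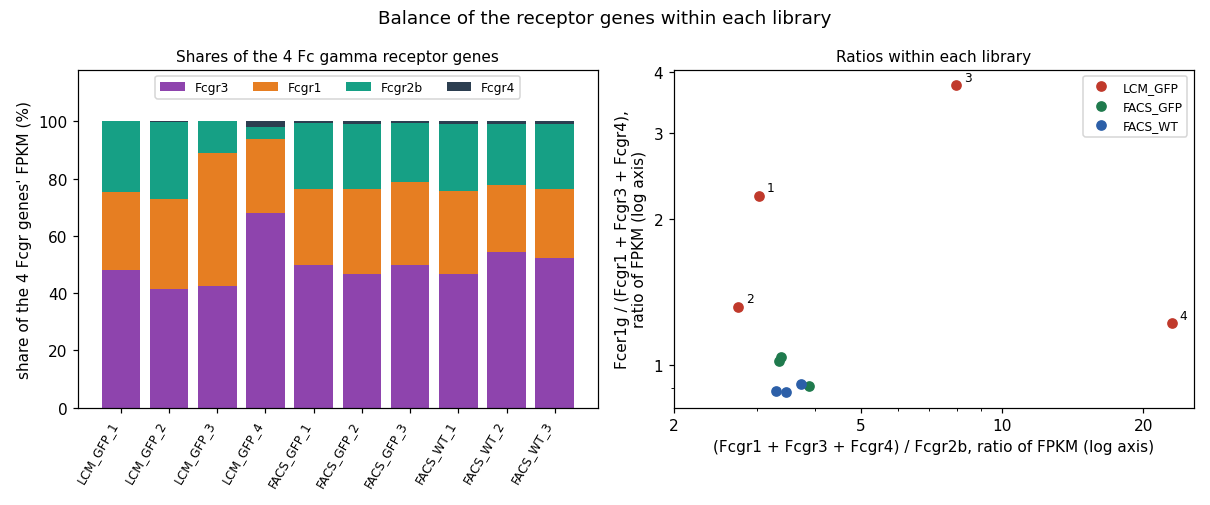
Left: share of Fcgr3, Fcgr1, Fcgr2b and Fcgr4 in their summed FPKM for each library. Right: ratio of Fcer1g to the activating receptors (vertical, log axis) against the ratio of activating receptors to Fcgr2b (horizontal, log axis), 1 point per library, with laser-captured libraries numbered. The 6 sorted libraries lie close together, between 3.30 and 3.88 on the horizontal axis, while the laser-captured ones reach 23.0 on that axis and 3.76 on the vertical one.

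FACS_GFP and FACS_WT, both sorted, compare microglia of GFP mice with those of wild-type mice. A gene not called here is not thereby shown to be equal in both. None of the 6 genes was called by limma, where 0.110% of 11814 genes were. At an unadjusted p under 0.05 the count was 1 of the 6, Fcgr4, where 13.1% of all genes had such a p. It read 4.09 ± 0.290 FPKM in GFP and 7.05 ± 1.60 FPKM in wild-type cells (SD, n = 3 each), a log2 change of −0.64 (95% interval −1.02 to −0.27, limma adjusted p = 0.252). All 3 GFP libraries lay below all 3 wild-type libraries, as they did for 9.29% of the genes tested.

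For the other 5 genes the intervals bound the difference. Fcgr1 differed by less than 0.01 (−0.36 to 0.35 on the log2 scale) and Fcer1g by −0.01 (−0.38 to 0.35), and Fcgr2b, Fcrls and Fcgr3 by −0.17 (−0.53 to 0.20), −0.20 (−0.55 to 0.14) and −0.22 (−0.68 to 0.24). In the authors' deposited table Fcgr4 had a log2 ratio of 0.74, wild-type over GFP, with a q-value of 0.359. The groups also differ in labelled sex, and with labelled sex as a covariate the limma adjusted p of Fcgr4 was 0.675. Cx3cr1, the fractalkine receptor, was the single one of 24 microglia markers called here, at 72.5, 64.6 and 70.4 FPKM in GFP and 123, 139 and 146 FPKM in wild-type cells (log2 change −0.97, limma adjusted p = 0.0179). It was named after its values were seen.

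The receptors' pathway was covered by 7 lists of 87 related genes. Of these, 67 were tested between laser capture and sorted GFP cells, where 31 were called lower and 3 higher, with a median log2 change of −1.77. The 31 make up 46.3% of those tested, beside 19.6% of all genes called lower, and 12.5% of all genes were called higher. Among these calls, 2 of the 31 (Cd79b and Cd247) and 2 of the 3 (Vav3 and Myo10) were of genes admitted to the test by the group where they were high, which favours the direction they took. The counts against sorted wild-type cells, which share the laser-captured libraries, were 32 and 3 of 67, of which 3 and 2 were admitted in that way, with 12.3% of all genes called higher. Between the sorted groups none of 66 was called by limma, and 4 had an unadjusted p under 0.05, where 13.1% of all genes did. The list counts that follow are against sorted GFP cells unless another group is named.

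Of 12 other genes that bind antibody Fc parts or resemble such receptors, 3 were tested. Fcrl1, an Fc receptor-like molecule better known from B cells, fell by 2.68 on the log2 scale against sorted GFP cells, from 27.1, 22.9 and 32.4 FPKM to 1.98, 8.42, 10.2 and 0.188 FPKM. Trim21, a receptor for antibody in the cytosol, fell by 2.23. Fcgrt, the neonatal Fc receptor, read 6.31, 15.9, 0.413 and 2.42 FPKM after laser capture and 16.2 to 17.6 FPKM in sorted GFP cells, and was not called. Of the other 9, 8 stayed under 1 FPKM everywhere, and Fcrl6 reached 8.44 FPKM in laser-captured library 1 alone.

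The alpha and beta chains of the IgE receptor, which also use the gamma chain, were at or near 0: Fcer1a was listed at 0 in all 10 libraries and Ms4a2 reached at most 0.0225 FPKM. The 7 other receptors listed as partners of the gamma chain (Clec4e, Clec4d, Clec4n, Oscar, Gp6, Ncr1 and Pira2) stayed at or below 0.435 FPKM, so none was tested. The abundant Fcer1g transcript thus stood beside 3 detectable activating IgG receptors and almost no transcript of these other partners.

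Of 6 other ITAM chains and related adaptors, 4 were tested and all 4 were called lower by limma, 2 of them (Cd79b and Cd247) admitted only by the sorted libraries, with Tyrobp turning to 0.02 under centring on microglia markers. Tyrobp, the adaptor of Trem2, read 377, 627, 337 and 134 FPKM after laser capture and 787 to 1190 FPKM in sorted GFP cells (log2 change −1.59). Cd79b, known as a chain of the B cell receptor, read 0, 31.2, 2.19 and 0.264 FPKM against 34.3 to 50.8 FPKM. Pax5, a B cell transcription factor, read 2.68 and 1.04 FPKM in laser-captured libraries 3 and 4 and 0 FPKM in each of the 3 sorted GFP libraries. Hcst (DAP10, which carries a different motif) fell by 2.51. Cd247 (CD3 zeta) read 0, 0.340, 0.194 and 0 FPKM after laser capture and 2.70 to 3.07 FPKM in sorted GFP cells. Hcst did not pass against sorted wild-type cells.

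Of 27 genes of ITAM signalling, all tested, 12 fell and 2 were called higher, with a median log2 change of −1.81. Syk, the kinase that docks on the gamma chain, read 8.60, 9.62, 7.49 and 0.876 FPKM after laser capture and 27.7 to 32.6 FPKM in sorted GFP cells (log2 change −2.27, limma adjusted p = 0.0332). Lyn, a Src family kinase, fell by 2.86 and Prkcd, protein kinase C delta, by 2.38. Lcp2 (the scaffold SLP-76, log2 change −1.98) and Pik3r1 (a regulatory subunit of PI3 kinase, −1.70) did not pass.

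Fyn, a Src family kinase also made by neurons and oligodendrocytes, rose from 8.10 to 8.84 FPKM in sorted GFP cells to 18.2, 75.9, 22.3 and 30.2 FPKM. Vav3, an exchange factor admitted only by the laser-captured libraries, read 4.14, 7.10, 11.5 and 9.36 FPKM there and 0.105 to 0.634 FPKM in sorted GFP cells. Both moved with the neuron, oligodendrocyte and astrocyte markers, and the part of those cells was not tested. Syk, Fyn and Vav3 were named after their values were seen.

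Of 13 genes of the phagocytic cup, 6 fell and 1 was called higher, with a median log2 change of −0.89. Elmo1 (an activator of Rac), Arpc2 (a subunit of the actin-nucleating Arp2/3 complex) and Rac1 (a GTPase) fell by 1.29, 1.48 and 0.89, and all 3 turned to the positive side under centring on microglia markers, at 0.31, 0.13 and 0.71. Arpc1b, another Arp2/3 subunit, had a change of −1.88 and did not pass. Against sorted wild-type cells Arpc1b passed (limma adjusted p = 0.0438) and Elmo1 did not (limma adjusted p = 0.0610). Myo10, a myosin of filopodia named after its values were seen and admitted only by the laser-captured libraries, read 8.47, 16.7, 27.1 and 18.5 FPKM there and 0.465 to 0.704 FPKM in sorted GFP cells.

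Of 11 genes of inhibitory signalling, 10 were tested and 4 fell, with a median log2 change of −1.53. Inpp5d, which encodes the SHIP-1 phosphatase recruited by Fcgr2b, fell by 2.18, from 211 to 217 FPKM in sorted GFP cells to 17.2, 105, 95.9 and 26.1 FPKM. Ptpn6 (the phosphatase SHP-1) fell by 2.77 and spread widely in the sorted libraries themselves, at 594, 1606 and 842 FPKM in GFP and 614, 268 and 294 FPKM in wild-type cells, against which it did not pass (log2 change −1.42, limma adjusted p = 0.0943). Csk, the kinase that restrains Src family kinases, and Dok1, an adaptor, fell by 1.91 and 1.96. Cbl, a ubiquitin ligase, read 151, 19.0, 104 and 9.05 FPKM after laser capture around a sorted GFP level of 40.1 to 42.1 FPKM, and Pag1, a membrane anchor for Csk, had a change of −1.15; neither passed.

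Of 11 other ITIM receptors, 10 were tested and 3 fell: Lilrb3 by 3.69, Cd300a by 2.56 and Siglece by 2.41. The 4 most abundant, Lair1 (a collagen receptor), Sirpa (the receptor for CD47), Clec4a2 and Cd33, did not pass, with changes of −1.51, −0.91, −3.96 and −1.05. Against sorted wild-type cells 5 of the 10 fell, with Cd72 and Sirpa (limma adjusted p = 0.0489 for Sirpa) beside those 3, and Sirpa turned to 0.62 there under centring on microglia markers. Clec4a2 showed an uneven pattern, at 0.219 and 0.394 FPKM in laser-captured libraries 1 and 4 but 168 and 159 FPKM in libraries 2 and 3, near the sorted GFP range of 206 to 250 FPKM. Fcgr2b, the ITIM receptor among the 6 genes, was lowest in libraries 3 and 4.

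**Figure D4:**
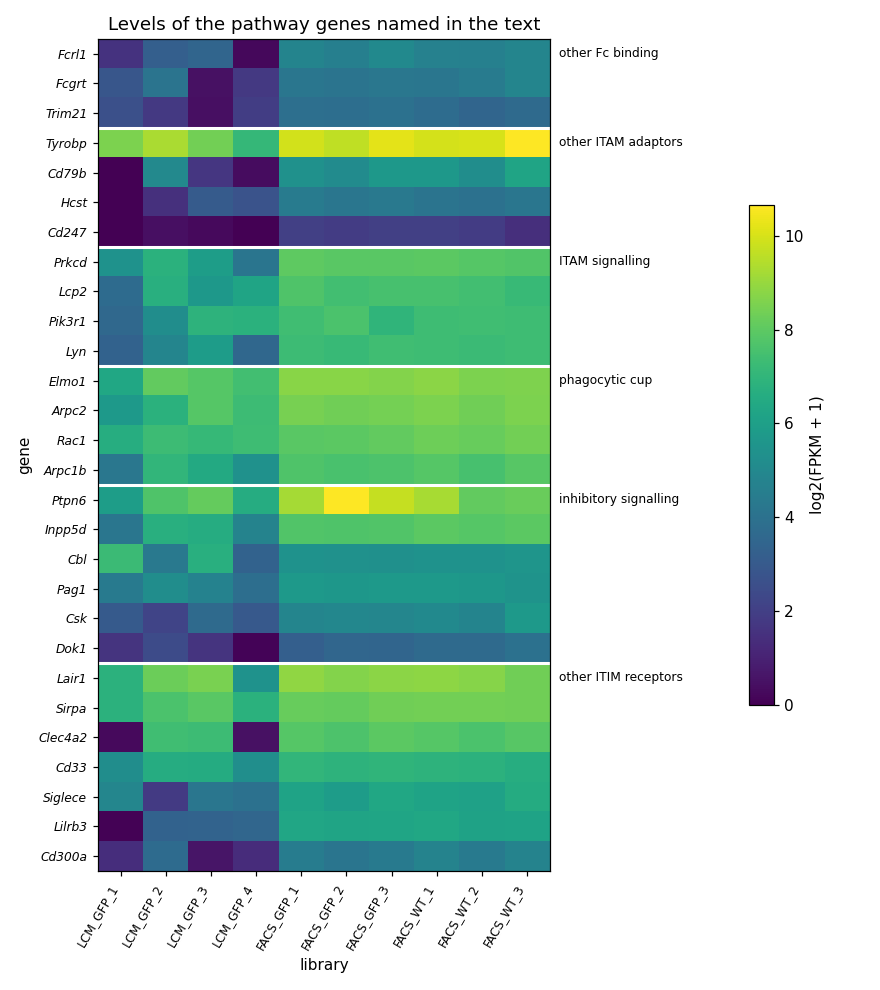
Heat map of log2(FPKM + 1), with libraries in columns and the named pathway genes in rows, grouped by list. Nearly all rows are brighter in the 6 sorted columns; Tyrobp is among the brightest rows throughout, Cbl is brightest in laser-captured libraries 1 and 3, and Clec4a2 is dark only in laser-captured libraries 1 and 4.

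Markers of blood cells that carry Fc receptors were summed in the same way. Among 8 neutrophil and monocyte genes, Csf3r made up nearly all of the signal, at 78.4 to 224 FPKM in laser-captured and 277 to 354 FPKM in sorted libraries, and S100a8 was listed at 0 in all libraries except sorted wild-type library 1, at 5.42 FPKM. Mast cell and basophil markers summed to at most 0.0632 FPKM in the sorted libraries (6 genes), and to 0.306 to 29.1 FPKM after laser capture, all of it from Kit, with the other 5 listed at 0. Kit read 17.1, 4.91, 0.306 and 29.1 FPKM in laser-captured libraries 1 to 4 and was admitted to the tests by these libraries only. T and NK cell markers summed to at most 1.38 FPKM (7 genes).

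Perivascular macrophage markers, which could share Fc receptors with microglia, summed to 21.1 to 47.0 FPKM in sorted GFP, 28.2 to 34.5 FPKM in sorted wild-type and 1.18 to 18.1 FPKM in laser-captured libraries (6 genes). Of the 5 tested, Mrc1 and Pf4, both admitted only by the sorted libraries, were called lower against sorted GFP cells, at −2.53 and −3.39. They moved in the same direction as the 6 genes, and their part in the result was not tested.

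The genes most like each of the 6 over the 10 libraries were found by the smallest root mean square difference of centred log2(FPKM + 1) values, among 9818 genes with a mean of at least 5 FPKM. The libraries share the contrast of isolation methods, so these distances describe the pattern and nothing more. Fcgr1 was nearest to Plxnb2 and Camk1 (0.15 each) and Ptpre (0.21), and Fcgr3 to Mcfd2 and Mtif3 (0.19 each) and Med22 (0.20). Fcgr4 was nearest to 2210016F16Rik (0.19), Rnf149 (0.21) and Tagln2 (0.25), and Fcrls to Hcls1 (0.17), Nat6 (0.18) and Ctss (0.21).

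Fcer1g was nearest to Eftud1 (0.15), Ciao1 (0.17) and Gpatch2 (0.19). Fcgr2b had no gene as close: its nearest were Il16 (0.31), Vamp8 (0.33) and Gm3264 (0.42). Among the 6 themselves, Fcgr1 and Fcgr3 lay closest (0.40), and Fcgr2b and Fcgr4 farthest apart (1.19).

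The genomic neighbours of the 6 genes were read from the same libraries. Fcgr2b, Fcgr4 and Fcgr3 lie within 1 stretch of chromosome 1, with 42371 and 21406 bases between them, and Fcer1g follows farther along. Near Fcer1g, B4galt3 fell by 1.68 on the log2 scale against sorted GFP cells. It did not pass against sorted wild-type cells (limma adjusted p = 0.0574). Pcp4l1 and Adamts4, admitted only by the laser-captured libraries, read 7.59 to 31.1 and 3.47 to 14.0 FPKM there and at most 0.0394 and 0.0613 FPKM in any sorted library.

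Against sorted GFP cells the Fcer1g neighbours Tomm40l, Ppox and Usp21 did not pass, at −0.04, −1.23 and −1.32. Fcgr1 lies beside a histone cluster, in which both entries of Hist2h3c1 fell against sorted GFP cells, by 1.95 and 2.86. The entry with the smaller fall did not pass against sorted wild-type cells (limma adjusted p = 0.0598). Hist2h4 and Hist2h2bb of this cluster, at −0.46 and −1.18 against sorted GFP cells, did not pass. Hist2h3b and Hist2h3c2, admitted only by the sorted libraries, read at most 0.391 and 0 FPKM after laser capture and 3.25 to 9.45 and 2.22 to 3.31 FPKM in sorted GFP cells. The nearest, Hist2h2bb, is 3906 bases away and read 11.8, 0.617, 27.5 and 0 FPKM after laser capture.

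How far each call depends on the settings can be read from the grid of adjusted p-values. Over the 20 alternatives run for LCM_GFP against FACS_GFP, Fcgr3 was called in 19, Fcgr1 in 16, Fcgr4 and Fcrls in 13 each, Fcgr2b in 10 and Fcer1g in 6. For LCM_GFP against FACS_WT the numbers of 20 were 18 for Fcgr3, 15 for Fcgr1 and Fcgr4, 14 for Fcrls, 11 for Fcgr2b and 5 for Fcer1g. Calls of Fcgr4 carry no weight where the filter was used, since the sorted libraries admitted it. Single laser-captured libraries mattered for 3 genes. Fcgr2b lost its call without library 3 in both comparisons, and its change moved to −3.48 without library 2 and to −2.19 without library 4 against sorted GFP cells. Fcrls lost its call against sorted GFP cells without library 4, and Fcer1g lost its call in both comparisons without library 1 or library 4.

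**Figure D5:**
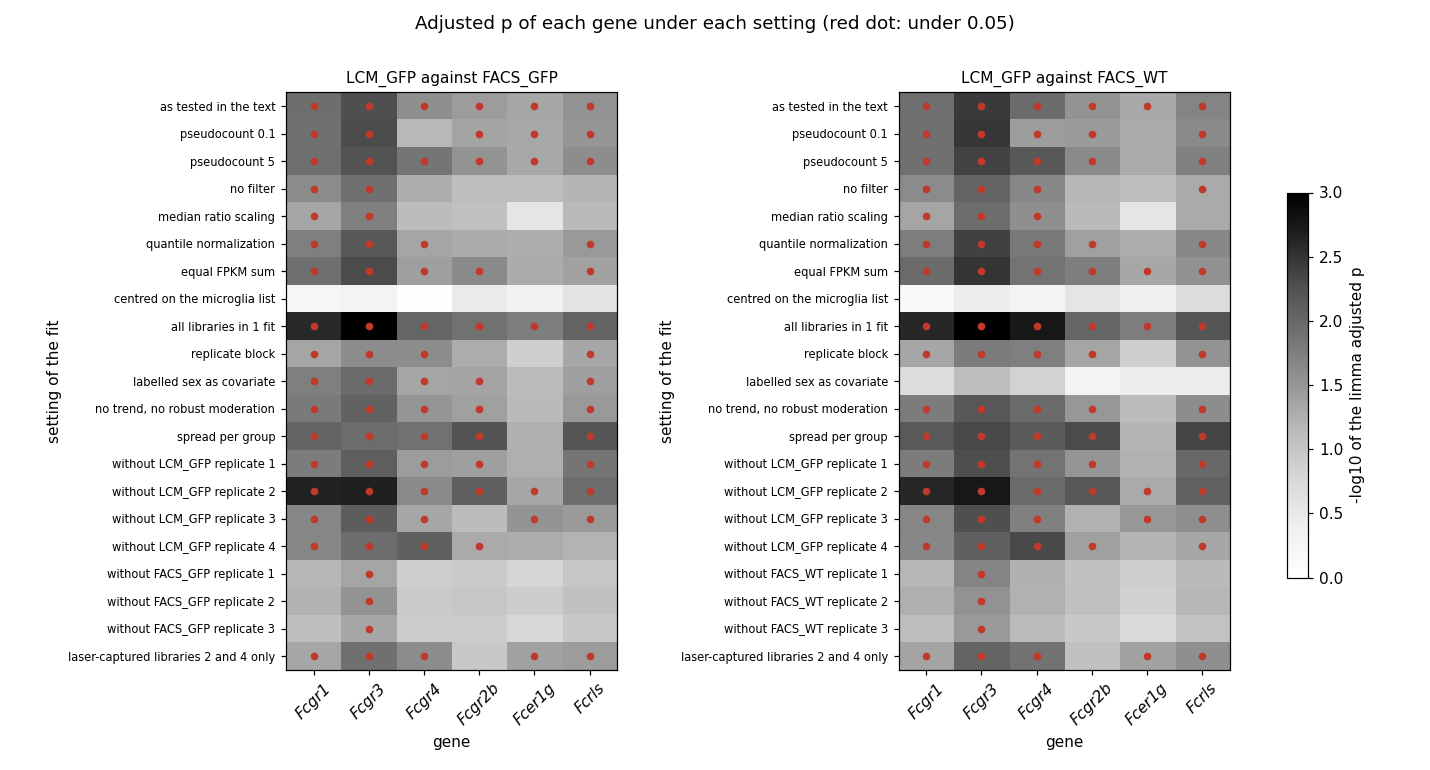
Adjusted p of each gene (columns) under each setting of the limma fit (rows) for both comparisons with laser capture, darker for lower p, with a red dot where it is under 0.05. The column of Fcgr3 has a dot in every row but those for centring on microglia markers and, against wild-type cells, labelled sex; the column of Fcer1g has the fewest dots.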

How the data were processed

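Tools named in the submitters' processing notes are Cufflinks 2.0.2, Bowtie2 2.0.0, TopHat2 2.0.4 and CASAVA 1.8.2, with mm9 as genome build; the annotation is not given in the sources used here. The deposited expression table holds FPKM per gene and library, per the file headers. The authors' deposited comparison table holds a log2 ratio between groups (used as a score), a p-value and a q-value, per the file headers. Low values of genes with 1 exon lay within 0.2 of a whole multiple of a step in 43.3% to 49.7% of cases, where 40% would do so at random, so reads were not recovered, no counting error is given and depth is unknown. Summed FPKM ran from 393949 to 632854, and 13661 genes were listed at 0 everywhere.

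For each comparison, log2(FPKM + 1) of the libraries of its groups was fitted with limma 3.58.1 (R 4.3.3, statmod 1.5.0; trend, robust, two-sided), keeping genes that reached 1 FPKM in 3 or more of those libraries. A gene is said to rise or fall where its adjusted p (Benjamini-Hochberg, all tested genes) is under 0.05. The labels call the libraries biological replicates, and p-values measure the spread between these samples only. All 6 genes passed the filter in all 3 comparisons. The fit was also tested on simulated data, in which a small set of genes was shifted and all others had no difference. The simulated fit against sorted GFP cells (13403 genes) recovered 0% of genes shifted by 1 on the log2 scale and 7% of those shifted by 2. Against sorted wild-type cells (13415 genes) it recovered 0% and 6%, and between sorted groups (11814 genes) 79% and 96%. In the data, 32.1% and 31.4% of genes were called in the comparisons with laser capture. With so few shifted genes the adjusted threshold was stricter in the simulation, so its rates do not give the power of those comparisons.

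The 6 genes and the 17 lists (172 genes, 171 matched by symbol and Lilrb3 through an older one) were chosen with earlier results of these data known. Named are the 6 genes; up to 4 genes of each pathway list by mean FPKM, and called ones where 3 or fewer; neighbours within 50 kb with a mean of 1 FPKM; the 3 genes most like each of the 6; and up to 3 genes of each marker list. Exceptions are stated, and a few genes that the rule names are not reported here. Alternatives covered pseudocounts of 0.1 and 5, the filter, scaling, covariates, the replicate block, moderation and leaving libraries out. Same-numbered libraries did not deviate together in the comparisons with laser capture, and only weakly between the sorted groups. The numbers were not used as pairs. Python 3.11.15, pandas 2.3.3, numpy 2.4.6 and matplotlib 3.10.9 were used. Promoters are RefSeq's (GRCm38.p6, all 6 genes matched), transcripts GENCODE M21.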

Additional observations from a re-analysis of the deposited data

How the results depend on the processing

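Against sorted GFP cells, the count of called genes among the 6 was 6, including Fcgr4, whose call carries no weight. It became 2 without the filter (17.6% of all genes called), 2 with median ratio scaling (23.6%) and 0 when centred on microglia markers (26.2%). It ran from 1 to 6 when single libraries were left out. Against sorted wild-type cells the count was 6, again with Fcgr4. It became 3, Fcgr4 among them, with median ratio scaling (23.3% of all genes called) and 0 when centred on microglia markers (27.7%). With labelled sex as a covariate it was 0 (13.1%), and it ran from 1 to 6 when single libraries were left out. Counts made with the filter include Fcgr4 where it was under the threshold, and its call there carries no weight. Leaving out a sorted library left 2 in its group and 8.21% to 9.14% of all genes called, where 32.1% and 31.4% had been. Between the sorted groups the count was 0 in all 18 alternatives. The share of calls that were lower, 61.0% and 60.8%, was 40.3% and 40.3% with median ratio scaling, 48.4% and 48.5% with quantile normalization and 4.90% and 3.64% when centred on microglia markers; the median change of all genes moved from −0.60 to −0.12, −0.29 and 1.01 against sorted GFP cells.

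Under centring on microglia markers the direction turned for Fcer1g (0.46), Tyrobp (0.02), Elmo1 (0.31), Arpc2 (0.13), Rac1 (0.71) and Tagln2 (0.04) against sorted GFP cells. Against sorted wild-type cells it turned for Fcer1g (0.53), Cd247 (0.07), Arpc2 (0.14), Rac1 (0.52), Sirpa (0.62), Apoa2 (0.20) and Laptm5 (0.00). With laser-captured libraries 2 and 4 only, Cbl turned to −1.56. Causes were not tested. With the replicate block, 4 of the 6 genes were called against sorted GFP cells (25.1% of all genes called) and 5 against sorted wild-type cells (24.9%). Fcgr4, whose call carries no weight, was among both. Between sorted groups the count with this block was 0 (0.161%). The correlations of same-numbered libraries' deviations were −0.02, 0.01 and −0.03 against sorted GFP cells and −0.04, 0.00 and −0.01 against sorted wild-type cells. Between the sorted groups they were 0.14, 0.01 and 0.21, while those of other-numbered libraries ran from −0.22 to 0.09. Whether the numbers weakly pair the sorted libraries was not settled. Depth is unknown, which leaves values near 0, such as those of Fcgr4, without a counting error.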
